A study of Mus musculus with 4 samples.

Results

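Hnf4a, Hnf4g and Foxa3 are 3 transcription factor genes best known from liver and gut, chosen by symbol among the 28006 features counted in mouse lung adenocarcinomas. HNF4A and HNF4G are nuclear receptors that bind DNA as dimers and switch on liver and intestinal genes, among them those for apolipoproteins and clotting factors. FOXA3 belongs to the forkhead family and shares its DNA-binding domain with FOXA1 and FOXA2, which open chromatin at foregut genes and are normally present in lung epithelium. In the airway of mice, Foxa3 is known from mucous goblet cells, while Hnf4a is scarce in healthy lung and appears in lung adenocarcinomas that take on gastric traits.

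The study compared 2 genotypes of mixed 129/B6 mice. KPF1F2 mice carried Foxa1flox and Foxa2flox together with p53frt, Rosa-FSF-CreERT2 and KrasFSF-G12D, and KP mice carried the same alleles with Foxa1flox/+ and Foxa2flox/+, so that KP tumours also had 1 floxed copy of each Foxa gene. Tumours of both genotypes were started by an adenovirus with FlpO under the mouse SPC promoter, which is active in alveolar type 2 cells. All mice received 4 daily tamoxifen injections of 120 mg/kg at week 10, and tumours were macrodissected at week 12. Dissociated cells were sequenced before (pre-depletion) or after (post-depletion) removal of CD45-positive leukocytes and CD31-positive endothelium. This gives 4 groups with 1 library each, so no comparison has a replicate and no p-value is given. The labels do not say how many mice a library holds, nor whether a genotype's pre- and post-depletion cells shared tumours.

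After filtering, the libraries held 3377 cells (KPF1F2 pre-depletion), 3616 (KP pre-depletion), 2475 (KPF1F2 post-depletion) and 3375 (KP post-depletion). Of these, 186, 655, 1879 and 2609 were epithelial-like, meaning that they fell in clusters named as epithelium. Such a name needed at least 3 raised epithelial markers, and some clusters with these markers raised stayed unnamed by the further rules below. The epithelial-like cells had median depths of 20197, 20995, 17521 and 12137 UMIs (unique molecular identifiers, each a counted transcript). The clusters that held most KPF1F2 epithelial-like cells were 2, 8 and 0, and those that held most KP cells were 0, 3 and 4. Foxa1 and Foxa2 had 0 UMIs under their own identifiers in every library. Of the added features that carry their names, Foxa1_2 stood at 10.3 and 3.44 CPM in KPF1F2 and at 16.7 CPM in each KP library (pre- and post-depletion), and Foxa1_1 at 5.55 and 8.03 CPM in KPF1F2 against 4.29 and 2.61 CPM in KP, CPM (UMI counts per 1e+06 UMIs) being computed on UMIs summed over cells. Which stretch such a feature covers is not stated in the files. The genotypes also differed in sex-linked genes: Ddx3y stood at 29.6 and 34.1 CPM in KPF1F2 against 0 in KP, and Xist at 0.206 and 0.311 CPM in KPF1F2 against 659 and 689 CPM in KP. Sex and genotype cannot be told apart here. Pairs of libraries shared between 6 and 16 barcodes, at most 0.268% of a library.

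Hnf4a (ENSMUSG00000017950) lies on chromosome 2 of GRCm38 from 163506808 to 163572910 on the plus strand, with 5 annotated transcripts of up to 10 exons. It is read from a distal promoter, known as P2, and a proximal promoter, P1, and the counts of 3′ ends do not tell their products apart. The antisense gene Hnf4aos overlaps its 5′ part on the minus strand and had 4 UMIs over all barcodes of KP pre-depletion and 0 in the other 3 libraries. Hnf4g (ENSMUSG00000017688) lies on chromosome 3 from 3508030 to 3658052, plus strand, with up to 10 exons. Foxa3 (ENSMUSG00000040891) lies on chromosome 7 from 19013284 to 19023538, minus strand, and has 2 exons. Upstream sequences were at hand for Hnf4a and Foxa3, and are shown because the levels of these genes moved together across the epithelial clusters. They are RefSeq sequences of GRCm38.p6, written 5′ to 3′ on the strand of the gene and reaching up to the RefSeq start of transcription. The window of Hnf4a P2 was shortened to 201 bases so as to stop before the GENCODE gene start, and the other 2 have 250 bases. For Hnf4a P2 they cover chr2:163506607-163506807 (plus strand), for Hnf4a P1 chr2:163546905-163547154 (plus) and for Foxa3 chr7:19023540-19023789 (minus). Capitals mark the forkhead core TGTTT on either strand.

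Hnf4a P2: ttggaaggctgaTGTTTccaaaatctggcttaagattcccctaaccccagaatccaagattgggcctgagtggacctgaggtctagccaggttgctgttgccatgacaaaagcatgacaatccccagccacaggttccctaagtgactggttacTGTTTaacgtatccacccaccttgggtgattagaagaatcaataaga
Hnf4a P1: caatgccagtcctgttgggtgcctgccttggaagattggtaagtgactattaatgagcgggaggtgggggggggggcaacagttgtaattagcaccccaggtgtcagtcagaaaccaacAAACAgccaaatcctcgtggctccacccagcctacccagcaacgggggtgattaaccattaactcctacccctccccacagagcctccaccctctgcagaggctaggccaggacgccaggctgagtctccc
Foxa3: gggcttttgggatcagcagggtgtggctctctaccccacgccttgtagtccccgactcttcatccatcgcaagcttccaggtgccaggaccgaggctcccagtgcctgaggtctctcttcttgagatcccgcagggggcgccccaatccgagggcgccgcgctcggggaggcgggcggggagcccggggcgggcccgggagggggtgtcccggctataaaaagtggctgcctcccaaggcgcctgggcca

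None of the 3 windows held the 7-letter forkhead cores TGTTTAC or TGTTTGC, the HNF4 core AAGTCCA or the NKX2-1 core CACTTGA on either strand. Over 32851 mouse promoters, 3.17%, 4.30%, 3.36% and 2.68% held them in the 250 bases before the start. The shorter forkhead core TGTTT, added after the others gave no match, occurred in 46.4% of promoters. It was found 2 times in Hnf4a P2, 1 time in Hnf4a P1 and 0 times in Foxa3. The Foxa3 window had a GC content of 68.8%, against 47.3% in Hnf4a P2 and 57.6% in Hnf4a P1.

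Hnf4a was almost absent from KPF1F2 epithelial-like cells and present in KP. Pre-depletion there were 0 UMIs in 186 KPF1F2 cells, which allows up to 0.617 CPM, against 365 UMIs in 655 KP cells, or 20.3 CPM (18.3 to 22.5, exact Poisson 95% interval, counting error only). With 3 UMIs taken in place of the 0, Hnf4a was 32.9-fold lower in KPF1F2. The exact 95% interval of the ratio, which also covers the counting error of KP, gave at least 26.7-fold. Post-depletion there were 16 UMIs in KPF1F2, at 0.355 CPM (0.203 to 0.576), against 1045 UMIs and 24.8 CPM (23.3 to 26.3) in KP. Hnf4a in KPF1F2 was thus 0.0143 times its level in KP (0.00816 to 0.0234), a log2 fold of −4.25 with 1 CPM added.

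Foxa3 was lower in KPF1F2 by a smaller factor and was still detected there. It had 21 UMIs and 4.32 CPM (2.67 to 6.60) in KPF1F2 pre-depletion against 257 UMIs and 14.3 CPM (12.6 to 16.2) in KP, a ratio of 0.302 (0.184 to 0.471) and a log2 fold of −1.53. Post-depletion it had 249 UMIs and 5.52 CPM (4.86 to 6.25) in KPF1F2 against 1066 UMIs and 25.3 CPM (23.8 to 26.8) in KP, a ratio of 0.219 (0.190 to 0.251) and a log2 fold of −2.01. The intervals of the genotypes did not overlap in either depletion state. Hnf4g, the close relative of Hnf4a in gut, had 1 UMI in all 4 libraries together, in a KPF1F2 post-depletion cell, so nothing can be said of its differences.

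Hnf4a and Foxa3, the 2 members that reached 10 UMIs over a pair of libraries, were 2-fold or more lower in KPF1F2 before and after depletion. Over all genes with that many UMIs, 5.65% were lower in KPF1F2 by 2-fold or more pre-depletion, 5.91% post-depletion and 3.56% in both states, while 6.45%, 4.5% and 3.0% were higher. Between depletion states of 1 genotype the members moved less. In KP, post-depletion over pre-depletion, the ratio was 1.22 (1.08 to 1.38) for Hnf4a and 1.77 (1.54 to 2.03) for Foxa3. In KPF1F2 it was 1.28 (0.819 to 2.10) for Foxa3, an interval that includes no change.

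**Figure D1:**
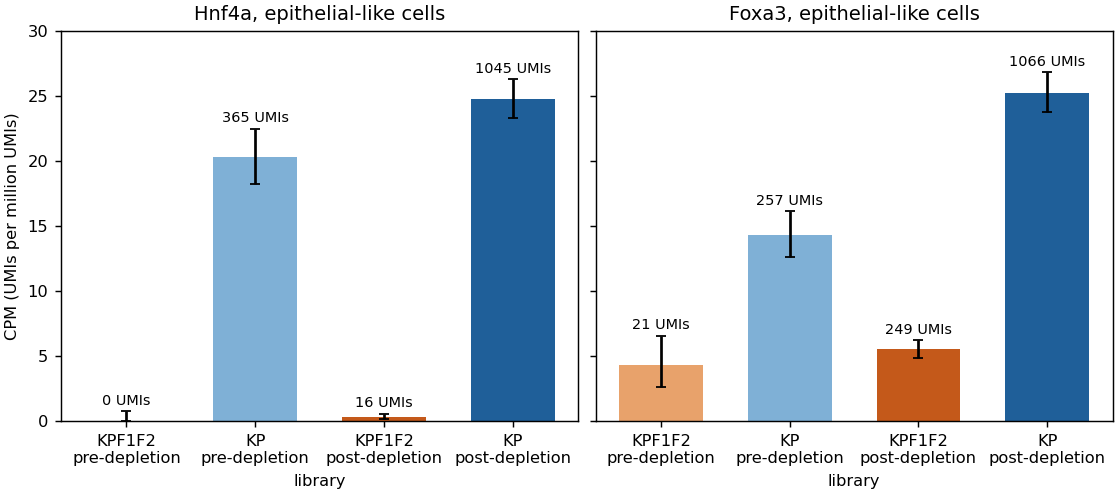
Levels of Hnf4a (left) and Foxa3 (right) in epithelial-like cells of each library, as CPM of summed UMIs, with exact Poisson 95% intervals and the UMI count above each bar. KPF1F2 stands at 0 and 0.355 CPM for Hnf4a against 20.3 and 24.8 in KP, and at 4.32 and 5.52 CPM for Foxa3 against 14.3 and 25.3.

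Depth was made equal by thinning every cell to 5000 UMIs and leaving out shallower cells: 24, 146, 438 and 518 cells of KPF1F2 pre-depletion, KP pre-depletion, KPF1F2 post-depletion and KP post-depletion. An Hnf4a UMI was then found in 0.139% of KPF1F2 cells (0.0168 to 0.50, exact binomial) against 9.56% of KP cells (8.34 to 10.9) post-depletion, and in 0 of 162 KPF1F2 cells, which allows up to 1.85%, against 6.68% of KP cells pre-depletion. Unthinned shares post-depletion were 0.426% and 21.8%. For Foxa3 the thinned shares were 1.80% (1.18 to 2.63) in KPF1F2 against 9.47% (8.25 to 10.8) in KP post-depletion. Pre-depletion they were 1.85% (0.384 to 5.32) in KPF1F2 against 3.54% (2.11 to 5.53) in KP, and these intervals overlap. Unthinned, 7.98% of KPF1F2 against 21.9% of KP cells had a Foxa3 UMI post-depletion, and 9.14% against 17.3% pre-depletion.

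Outside the epithelium few UMIs of the members were found. Alveolar macrophage-like cells, which should lack these genes, had 0 Hnf4a UMIs in 1545 cells at a median depth of 20861 UMIs. After thinning 0 of 1337 of them had one, which allows a share of up to 0.224%, and 1 had a Foxa3 UMI (0.0748%). Macrophage-like cells held 3 Hnf4a UMIs and 1 Foxa3 UMI in 1056 cells, and no other named non-epithelial class held more than 2 UMIs of either gene. T cell-like, neutrophil-like and fibroblast-like cells had 1, 1 and 2 Hnf4a UMIs, while endothelial-like and fibroblast-like cells had 1 and 2 Foxa3 UMIs. All alveolar macrophage-like cells came from the pre-depletion libraries. In KPF1F2 post-depletion itself, 333 thinned fibroblast-like cells (median 14749 UMIs before thinning) held Hnf4a in 0, which allows up to 0.901%, and Foxa3 in 1, or 0.3003% (0.00760 to 1.66). The Hnf4a share of the epithelial-like cells there, 0.139%, lies under that limit, and their Foxa3 share of 1.80% has an interval that overlaps that of the fibroblast-like cells. Among unnamed clusters, cluster 5 held shallow KP cells (median 2612 UMIs post-depletion) with epithelial markers raised. It had Hnf4a at 26.3 and 30.03 CPM and Foxa3 at 15.8 and 7.75 CPM in KP (pre- and post-depletion).

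**Figure D2:**
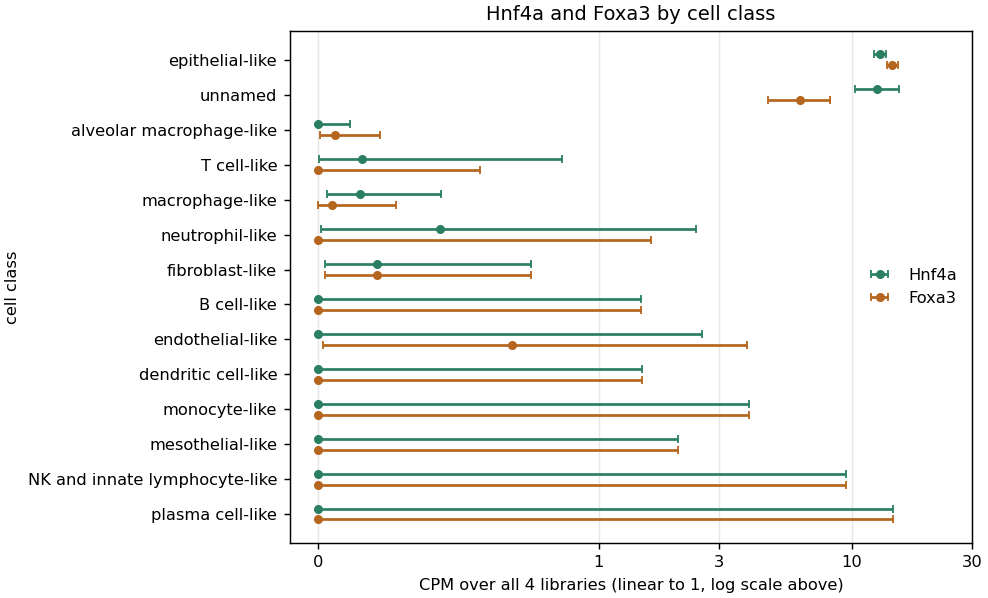
Levels of Hnf4a and Foxa3 by cell class over the 4 libraries together, in CPM on an axis that is linear to 1 and logarithmic above, with exact Poisson 95% intervals. Only epithelial-like cells and the unnamed clusters, which include cluster 5, have intervals that lie wholly above 1 CPM.

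Within the epithelium, Hnf4a and Foxa3 followed the state of the KP cells. Clusters were made without the members and described by their marker genes. Cluster 4, highest in Ctse (cathepsin E, an aspartic protease of stomach epithelium), and cluster 3, highest in Gkn2 (gastrokine 2, a secreted protein of gastric pit cells), held 54.4% of KP epithelial-like cells and 66.6% of all their UMIs post-depletion, but 94.9% of their Hnf4a UMIs and 91.1% of their Foxa3 UMIs. Pre-depletion they held 36.3% of the cells, 57.4% of all UMIs, 96.2% of the Hnf4a UMIs and 94.2% of the Foxa3 UMIs.

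In the Ctse cluster Hnf4a stood at 42.4 CPM (36.0 to 49.5) in KP pre-depletion and 43.2 CPM (39.7 to 46.9) in KP post-depletion. In the Gkn2 cluster it stood at 29.3 CPM (25.3 to 33.7) and 28.8 CPM (26.1 to 31.6). In cluster 0, highest in Sftpc (surfactant protein C, the product of alveolar type 2 cells), there were 2 UMIs at 0.343 CPM and 8 UMIs at 1.02 CPM. The order was the same in the 2 libraries. Post-depletion, the ratio to the Sftpc cluster was 42.2 (21.3 to 98.2) for the Ctse cluster and 28.1 (14.1 to 65.5) for the Gkn2 cluster. The Ctse cluster exceeded the Gkn2 cluster by 1.45 times (1.16 to 1.79) pre-depletion and 1.501 times (1.32 to 1.70) post-depletion. One KP pre-depletion cell in the Ctse cluster held 31 of its 159 Hnf4a UMIs, and without that cell the cluster stood at 35.9 CPM.

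Foxa3 gave the same split between the gastric-marker clusters and the Sftpc cluster, with a difference between the KP libraries in the Ctse cluster. It stood there at 24.2 CPM (19.5 to 29.8) pre-depletion and 46.3 CPM (42.7 to 50.2) post-depletion. The Gkn2 cluster stood at 23.0 CPM (19.5 to 27.01) and 24.8 CPM (22.3 to 27.4), and the Sftpc cluster at 0.171 and 2.43 CPM. The Ctse cluster was thus 1.87 times (1.64 to 2.13) the Gkn2 cluster post-depletion but 1.05 times (0.803 to 1.37) pre-depletion. One KP post-depletion cell held 54 of the 592 Foxa3 UMIs of the Ctse cluster, which stood at 42.2 CPM without it. Post-depletion, the ratio to the Sftpc cluster was 19.1 (12.1 to 31.9) for the Ctse cluster and 10.2 (6.44 to 17.1) for the Gkn2 cluster.

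Other KP clusters lay between. Cluster 27, led by genes that include those of the neuropeptides Npy and Qrfp, had Foxa3 at 15.9 CPM (12.0 to 20.7) and Hnf4a at 6.83 CPM (4.38 to 10.2) post-depletion, so that the intervals of these genes did not overlap there. Cluster 21, led by Ager, a marker of alveolar type 1 cells, had 11 Foxa3 UMIs at 8.38 CPM (4.18 to 14.99) and 3 Hnf4a UMIs at 2.29 CPM (0.471 to 6.68). Cluster 12 was shallow, with a median of 1540 UMIs, and held 107 and 189 KP cells (pre- and post-depletion). Hnf4a stood there at 10.9 and 23.4 CPM and Foxa3 at 10.9 and 14.1 CPM, on only 275412 and 426858 UMIs of all genes. The counts are of 3′ ends, so that transcript length weighs little in these levels.

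**Figure D3:**
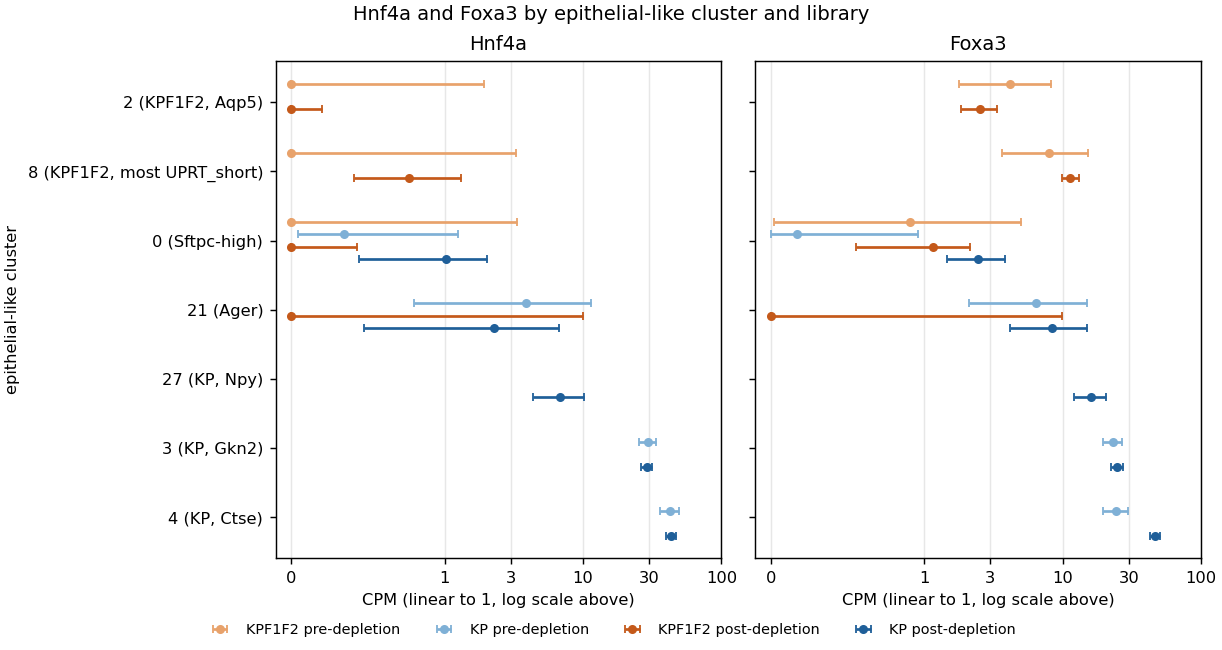
Levels of Hnf4a (left) and Foxa3 (right) in chosen epithelial-like clusters, for each library with at least 20 cells of the cluster. Values are CPM on an axis that is linear to 1 and logarithmic above, with exact Poisson 95% intervals. Epithelial-like clusters 12, 25, 36 and 37 are not shown. In KP (blue) both genes are lower in cluster 0 than in clusters 3 and 4, while in KPF1F2 (orange) Hnf4a is below 1 CPM and Foxa3 is highest in cluster 8.

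The same was seen when cells were grouped by their own marker UMIs, with at least 2 UMIs and 200 CPM of a marker needed. KP cells with Ctse and Gkn2 together had the highest Hnf4a level, 77.7 CPM (60.0 to 99.01) in 12 cells pre-depletion and 47.7 CPM (37.8 to 59.4) in 71 cells post-depletion. Cells with Ctse alone had 45.6 CPM (36.9 to 55.9) and 40.9 CPM (37.2 to 44.8). Cells with Gkn2 alone had 29.3 CPM (24.3 to 34.9) and 30.6 CPM (26.9 to 34.8). Post-depletion, the interval of the cells with both markers overlapped that of cells with Ctse alone but not that of cells with Gkn2 alone. A single KP pre-depletion cell could hold up to 31 Hnf4a UMIs, so the value over 12 cells may rest on few of them. The part of depth or of doublets in the levels of cells with both markers was not tested.

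KP cells with neither marker also held Hnf4a, at a lower level where they were rich in surfactant. Those with under 100000 CPM of Sftpc had 17.6 CPM (13.7 to 22.3) pre-depletion and 24.5 CPM (21.4 to 27.9) post-depletion, and those above it had 2.01 and 3.56 CPM. Foxa3 stood at 35.9 and 43.6 CPM in cells with Ctse alone, at 22.1 and 29.8 CPM in cells with Gkn2 alone and at 25.1 and 30.8 CPM in cells with both. In cells with neither it stood at 12.8 and 23.5 CPM below the Sftpc limit and at 2.73 and 6.32 CPM above it. For Foxa3, then, cells with both markers did not exceed cells with Ctse alone. Nkx2-1, the lineage factor of lung epithelium, went the other way between the marker groups. It stood at 94.2 and 72.2 CPM in cells with Ctse alone and at 191 and 172 CPM in cells with Gkn2 alone.

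Bex2, a small adaptor protein gene, marked KP cells that were lower in both members. Post-depletion, 229 cells with Bex2 had Hnf4a at 12.8 CPM (9.74 to 16.6) against 26.2 CPM (24.6 to 27.9) in cells without it, a ratio of 0.489 (0.369 to 0.638). Foxa3 stood at 13.3 CPM (10.1 to 17.1) against 26.7 CPM (25.1 to 28.4), a ratio of 0.497 (0.376 to 0.645). Pre-depletion the ratios were 0.305 (0.151 to 0.553) for Hnf4a and 0.740 (0.431 to 1.20) for Foxa3, the second with an interval that includes no difference. Among KP post-depletion cells with Gkn2, those with Bex2 as well had 0.655 times (0.450 to 0.928) the Hnf4a and 0.608 times (0.402 to 0.889) the Foxa3 of those without. By cluster the split differed: of the larger epithelial-like clusters, Bex2 was highest in cluster 3, the Gkn2 cluster. Hnf4a and Foxa3 stood in that cluster at 28.8 and 24.8 CPM in KP post-depletion.

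**Figure D4:**
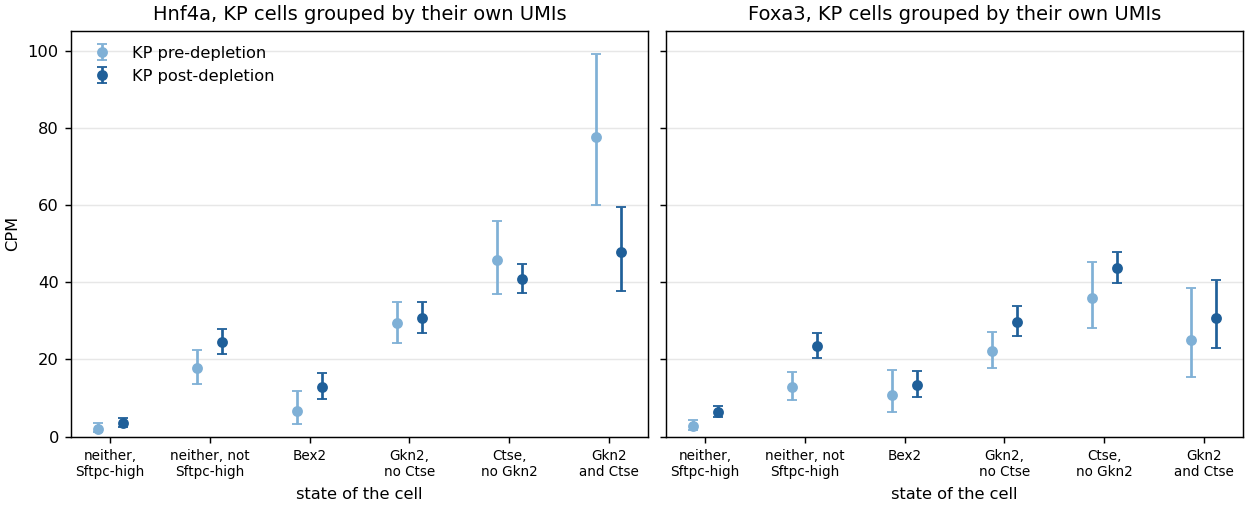
Levels of Hnf4a (left) and Foxa3 (right) in KP epithelial-like cells grouped by their own marker UMIs, in CPM with exact Poisson 95% intervals, pre-depletion (light) and post-depletion (dark). Cells with Bex2 may also carry the other markers. Hnf4a is highest in cells with both Gkn2 and Ctse, at 77.7 and 47.7 CPM, but these cells are few. Post-depletion their interval overlaps that of cells with Ctse alone. Both genes are lowest in Sftpc-high cells with neither.

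Hnf4a and Foxa3 were also found in the same single cells more often than the product of their shares. Of 2091 thinned KP post-depletion cells, 200 had an Hnf4a UMI, 198 a Foxa3 UMI and 43 both, where 18.9 were expected from the shares. Within the Ctse cluster 25 cells had both against 16.8 expected, and within the Gkn2 cluster 16 against 10.4, so that part of the excess follows the clusters. In the Ctse cluster 27.2% (18.4 to 37.4) of cells with Hnf4a had Foxa3, against 16.6% (13.3 to 20.3) of the others. In the Gkn2 cluster the shares were 16.2% (9.53 to 24.9) and 9.54% (7.32 to 12.2). The intervals overlap within each cluster. Of all thinned KP post-depletion cells with Hnf4a, 60.5% (53.4 to 67.3) had a Ctse UMI, against 26.1% of the other cells. Onecut2, a homeodomain factor of liver and gut, was found in 46.0% (38.9 to 53.2) of them against 19.4% of the others. Gkn2 differed less, at 36.5% (29.8 to 43.6) against 25.7%. Inside the Gkn2 cluster itself, 43.4% (33.5 to 53.8) of cells with Hnf4a had a Ctse UMI against 15.3% of the others, and 34.3% against 13.3% had Onecut2. Nkx2-1 was found in 46.0% of cells with Hnf4a and in 48.3% of the others, shares within counting error of each other.

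In KPF1F2 post-depletion both genes were found mostly in 1 cluster, at different levels. Of the clusters with at least 20 cells, Foxa3 was highest in cluster 8, the cluster with most UMIs of the added feature UPRT_short and with keratin genes in the lead, which post-depletion held 20.5% of the KPF1F2 epithelial cells, 37.5% of all their UMIs, 77.1% of their Foxa3 UMIs and 13 of their 16 Hnf4a UMIs. Hnf4a stood there at 0.769 CPM (0.409 to 1.31) post-depletion, with 0 UMIs in clusters 2 and 0. Pre-depletion, cluster 8 held 42.9% of the 21 Foxa3 UMIs, 14.5% of the cells and 23.1% of all UMIs, and Hnf4a had 0 UMIs. Foxa3 stood in cluster 8 at 8.01 CPM (3.66 to 15.2) pre-depletion and 11.4 CPM (9.80 to 13.1) post-depletion. In cluster 2, the largest KPF1F2 cluster, with Aqp5 among its leading genes, it stood at 4.15 and 2.52 CPM, and in the Sftpc cluster at 0.903 and 1.16 CPM. Post-depletion, cluster 8 was 9.80 times (5.21 to 20.8) the Sftpc cluster.

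Cells with a UPRT_short UMI, found in KPF1F2 alone, had Foxa3 at 8.67 CPM (7.36 to 10.2) against 3.48 CPM (2.81 to 4.25) in KPF1F2 cells without one post-depletion, a ratio of 2.49 (1.92 to 3.26). Pre-depletion they stood at 7.59 against 2.74 CPM, a ratio of 2.77 (1.07 to 7.45). Cells with UPRT_short were deeper, with a median of 29176 UMIs against 14471 post-depletion, and among cells with at least 5000 UMIs the ratio was 2.47 (1.90 to 3.23). Of cells with UPRT_short, the 135 without an Ager UMI had Foxa3 at 12.1 CPM (9.30 to 15.4) against 7.20 CPM (5.78 to 8.86) in the 334 with one. In KP, cells with a UMI of the recombinase CRE-ERT2 also had more Foxa3 than cells without one. The ratio was 2.83 (2.02 to 4.06) pre-depletion and 1.52 (1.34 to 1.72) post-depletion. For Hnf4a it was 2.43 (1.86 to 3.23) and 1.41 (1.24 to 1.598). Among KP cells with at least 5000 UMIs and neither Gkn2 nor Ctse, the Foxa3 ratios were 4.64 and 2.04. Whether the UPRT_short ratios are particular to that feature was not tested.

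The 16 Hnf4a UMIs of KPF1F2 post-depletion came from 8 cells, 7 of them in cluster 8 and 1 in cluster 4. Of these 8 cells 6 had a Ctse UMI, against 59 of the 1871 KPF1F2 cells without Hnf4a, or 3.15%. The cells with Hnf4a were deeper, with a median of 44623 UMIs against 17419. Among cells with at least 30000 UMIs, 5 of 6 had Ctse against 44 of 527, or 8.35%. The 12 KPF1F2 cells past the Ctse limit held 9 of the 16 UMIs, at 20.1 CPM (9.18 to 38.1), with 3 cells positive. KP cells past the same limit stood at 41.7 CPM (38.3 to 45.4). The KPF1F2 interval takes its 9 UMIs as independent, though they came from 3 cells. It therefore does not show how near the KPF1F2 level is to that of KP. None of the 8 had a Gkn2 UMI, 5 had UPRT_short, 5 had CRE-ERT2 and 1 had Foxa1_2.

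The genotype difference was then taken within subsets of the cells. In cells with a CRE-ERT2 UMI, in which the recombinase transcript was seen, Hnf4a stood at 0.462 CPM in KPF1F2 against 28.9 CPM in KP post-depletion and Foxa3 at 7.39 against 30.4 CPM. In cells with neither Gkn2 nor Ctse, Hnf4a stood at 0.157 CPM (0.0631 to 0.323) in KPF1F2 against 12.4 CPM (11.0 to 14.0) in KP post-depletion, and at 0 against 7.64 CPM (6.08 to 9.47) pre-depletion. Foxa3 stood there at 5.56 CPM (4.89 to 6.29) in KPF1F2 against 13.6 CPM (12.1 to 15.2) in KP post-depletion. Pre-depletion it stood at 4.32 CPM (2.67 to 6.60) in KPF1F2 against 6.35 CPM (4.94 to 8.03) in KP, with overlapping intervals. The cells with neither marker differed in make-up, since post-depletion 333 of 1867 in KPF1F2 against 930 of 1702 in KP were over the Sftpc limit, and pre-depletion 41 of 186 against 267 of 500. Under that limit Foxa3 stood at 5.31 CPM (3.25 to 8.21) in KPF1F2 against 12.8 CPM (9.48 to 16.8) in KP pre-depletion and at 6.56 CPM (5.75 to 7.45) against 23.5 CPM (20.4 to 26.9) post-depletion. Over it, Foxa3 stood at 1.30 CPM (0.647 to 2.32) in KPF1F2 against 6.32 CPM (4.99 to 7.89) in KP post-depletion. The intervals of the genotypes did not overlap in any of these 3 pairs. The remaining pair, cells over the limit pre-depletion, had only 41 KPF1F2 cells. Its values are not given, so no difference is shown for that pair. In the Sftpc cluster, which both genotypes filled, all values were low: Hnf4a had 0 UMIs in KPF1F2 against 8 in KP post-depletion, and Foxa3 had 10 at 1.16 CPM (0.555 to 2.13) against 19 at 2.43 CPM (1.46 to 3.795). Pre-depletion, Foxa3 had 1 UMI there in each genotype, at 0.903 CPM in KPF1F2 and 0.171 CPM in KP.

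Other liver and gut transcription factors split between lower and little-changed values. Over all genes compared, the shares to set beside this and each later list were 5.91% lower and 4.5% higher post-depletion. Pre-depletion these shares were 5.65% and 6.45%. Of 21 listed factors with enough UMIs post-depletion, 6 were at least 2-fold lower in KPF1F2 and 0 higher, with a median log2 fold of −0.39 against 0.03 over all genes. Pre-depletion 5 of 16 were lower and 2 higher (Sox2 and Sox21, named after their values were seen), with a median of −0.10; with the scalings of edgeR and DESeq2 6 were lower and 1 higher. Pparg, a nuclear receptor of fat storage, had log2 folds of −1.66 and −2.21, Hhex, a homeobox gene of early foregut, −1.53 and −1.95, and Gata5 −1.21 and −1.67. Onecut2 stood at 20.3 and 43.9 CPM in KPF1F2 against 92.3 and 135 CPM in KP. Onecut3, a relative of Onecut2, had 14 UMIs in KPF1F2 against 41 in KP post-depletion.

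Genes known as HNF4 targets in liver or gut had 10 of 27 compared at least 2-fold lower and 3 higher post-depletion (5.91% and 4.5% over all genes). Their median log2 fold was −0.76. Pre-depletion 12 of 25 were lower and 1 higher, with a median of −0.79, or −0.67 with the 5 genes at 0 UMIs in a library set at their bound. Apob, the protein of lipoprotein particles, stood at 0.822 and 2.82 CPM in KPF1F2 against 91.7 and 172 CPM in KP. Rbp4, the plasma retinol carrier, had folds of −3.52 and −5.43, and Alb, the serum albumin gene, −2.93 and −3.93. Vil1, the villin of microvilli, had −2.62 and −3.52, and Lgals4, a galectin of gut epithelium, −3.72 and −3.02. Apoh had folds of −0.37 and −0.31, and Apoa2 rested on 35 UMIs in KPF1F2 against 1 in KP post-depletion. The 3 higher genes, named after their values were seen, were Fgg, a fibrinogen chain (0.74 and 1.75), Slc5a1, the intestinal glucose carrier (0.79 and 1.48), and Serpina1b (50 UMIs in KPF1F2 against 1 in KP post-depletion).

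Gastric epithelial genes had 9 of 16 at least 2-fold lower in KPF1F2 and 2 higher post-depletion (1 with the scalings of edgeR and DESeq2), with a median of −1.97. Pre-depletion 6 of 15 were lower and 3 higher, with a median of −0.85, or −0.62 at the bounds. Gkn2 had 0 and 1 UMIs in KPF1F2 against 15338 and 24719 in KP, and Tff1, a trefoil peptide of gastric mucus, had 0 in both KPF1F2 libraries against 1025 and 1873. Ctse stood at 2.26 and 7.43 CPM in KPF1F2 against 125 and 242 CPM in KP. Gkn1 had folds of −1.22 and −3.25 and Vsig1, a junction protein of stomach, −1.88 and −3.24. Pgc, pepsinogen C, had −0.20 in both states, and Psca had 1.56 and −0.83. The 2 higher genes post-depletion, named after their values were seen, were Lyz1 (1.52) and Pigr (1.03).

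Genes tied to Foxa3 in goblet cells did not move together. Post-depletion 5 of 13 were at least 2-fold lower and 1 (Bpifb1) higher in KPF1F2, with a median of −0.46, whereas pre-depletion 2 of 13 were lower and 6 higher, with a median of 0.81. The mucin Muc5b stood at 66.4 CPM in KPF1F2 against 19.9 CPM in KP pre-depletion and at 1.09 against 45.4 CPM post-depletion. Clca1 had 1043 UMIs in KPF1F2 against 1 in KP pre-depletion and 1 against 80 post-depletion. Cluster 36, led by club cell genes such as Scgb1a1, held 6 KPF1F2 and 0 KP cells pre-depletion and 7 and 26 post-depletion, and its part in these values was not tested. Creb3l1, a secretory pathway factor, had folds of −3.02 and −3.29, Agr2, a disulfide isomerase of mucous cells, −1.20 and −2.24, and Muc5ac −0.39 and −1.66. Spdef, the goblet cell master factor, had at most 16 UMIs in a library, and Creb3l4 had folds of 0.29 and −0.26.

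**Figure D5:**
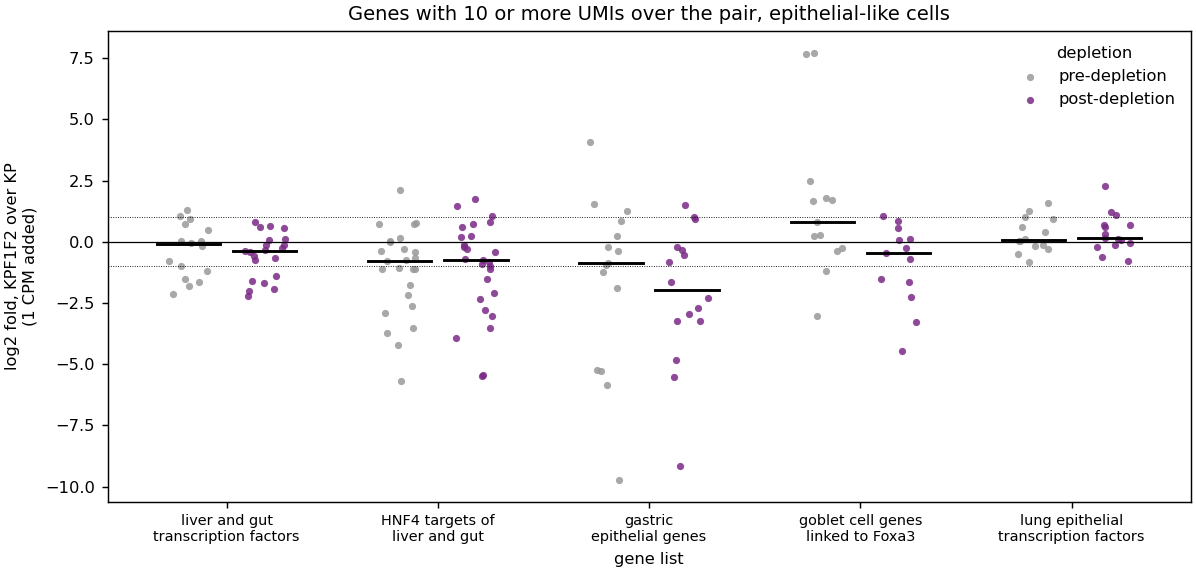
Log2 fold of KPF1F2 over KP in epithelial-like cells for the genes of 5 lists with at least 10 UMIs over the pair, pre-depletion (grey) and post-depletion (purple), with 1 CPM added. Bars are medians and dotted lines mark 2-fold. The post-depletion medians run from −1.97 for gastric genes to 0.14 for lung factors.

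Transcription factors of lung epithelium had 0 of 15 at least 2-fold lower and 3 higher post-depletion, with a median of 0.14, and 0 of 14 lower and 3 higher pre-depletion. The median pre-depletion was 0.08, and −0.03 and −0.01 with the scalings of edgeR and DESeq2, under which 2 were higher. Irx2, an Iroquois homeobox gene, had folds of 1.58 and 2.28, Irx1 0.60 and 1.09, and Tead1, a partner of YAP, 0.91 and 1.21. Etv5 had 0.40 and 0.67, Elf5 −0.31 and −0.79, and Nkx2-1 stood at 199 and 177 CPM in KPF1F2 against 183 and 142 CPM in KP.

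Foxa3 had the largest post-depletion fold of the listed forkhead genes compared, and Hnf4a that of the nuclear receptor genes. The added features Foxa1_1 and Foxa1_2 were not in the forkhead list. Post-depletion, Foxa1_2 in KPF1F2 was 0.205 times its level in KP (0.171 to 0.245), close to the 0.219 of Foxa3. The ratios were not close pre-depletion, at 0.615 (0.447 to 0.833) for Foxa1_2 and 0.302 (0.184 to 0.471) for Foxa3. Pre-depletion, Foxj1 had a larger fold in size than Foxa3, at 1.61 against −1.53. Of 20 forkhead genes compared post-depletion, 2 were at least 2-fold lower in KPF1F2 and 0 higher. These were Foxa3 and Foxq1, which had a fold of −0.63 pre-depletion and −1.11 post-depletion. Foxp2 had folds of −0.91 and −0.87, Foxj3 0.06 and 0.59 and Foxm1 −0.58 in both states, while Foxc1 had at most 7 UMIs in a library. Of 36 nuclear receptor genes 4 were lower, among them Hnf4a and Pparg, and 4 higher post-depletion. The counts of both families are small and stand beside 5.91% lower and 4.5% higher over all genes. Nr4a2 and Nr4a3, which are immediate-early genes, had folds of 2.95 and 3.03 pre-depletion and 3.14 each post-depletion, and Nr1d1, a clock gene, had 1.27 and 1.23. Esrra, an orphan receptor, had 0.11 and 0.18.

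Likeness of level was measured over 15 sums, 1 for each epithelial-like cluster and library with at least 50 cells, among 9113 genes. These points share 4 libraries and are not independent, so the correlations only describe them. The genes most like Hnf4a in log2(CPM + 1) were Lman1l (Pearson r = 0.977), Vil1 (0.970), Hunk (0.961), Stard10 (0.957) and Dnajc22 (0.953). Those most like Foxa3 were Scara3 (0.962), Arhgef40 (0.956), Znhit6 (0.952), Paqr5 (0.951) and Pfdn2 (0.949). Foxa3 and Hnf4a correlated with each other at 0.871 (Spearman's rho 0.885), which placed Foxa3 at rank 65 for Hnf4a. Gkn2 was nearer to Hnf4a (0.922) than to Foxa3 (0.746), and Ctse stood at 0.806 and 0.813. Nkx2-1 stood at −0.19 with Hnf4a and −0.28 with Foxa3.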

How the data were processed

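Tumour cells of 4 libraries were counted on 10x Genomics 3′ libraries (version 3.1, per the labels' protocols). The deposited matrices hold raw counts (UMIs by feature and barcode). Per the file headers they come from Cell Ranger 6.0.0, and per the submitters' processing notes from mm10. No source used here gives other settings or the use of strand. Positions are from GENCODE mouse release M21, which holds 27645 of the 28006 features.

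A barcode was kept if it had 1000 UMIs or more, 500 genes or more and no more than 20% of UMIs from mitochondria. Depth over all barcodes was 47805086 (KPF1F2 pre-depletion), 63010016 (KP pre-depletion), 62051171 (KPF1F2 post-depletion) and 58986043 UMIs (KP post-depletion). The doublet caller of scanpy 1.11.5 marked at most 0.156% of barcodes, under the 0.5% at which it can be taken to work, so the barcodes with the highest doublet scores were removed instead, a share of 0.8% for every 1000 barcodes (131, 181, 91 and 247 barcodes). Cells were scaled to 10000 UMIs and clustered (2000 variable genes without the members, 30 components, 15 neighbours, Leiden clustering with igraph 0.11.9 at resolution 1), which gave 39 clusters. These were named from 20 fixed marker sets. Clusters with another class better marked stayed unnamed, as did shallow clusters with no marker of the class among their 10 leading genes (1015 cells). Rebuilt names may differ from those of the study.

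UMIs were summed per class and library. Intervals are exact (Poisson, or Clopper-Pearson for shares, at 95%) and cover counting error only, and they take UMIs as independent though cells differ. Ratio intervals are exact conditional binomial. A fold has 1 CPM added and runs KPF1F2 over KP, and genes were compared with at least 10 UMIs over the pair. A count of 0 was given a floor of 3 UMIs per library. The fold calculation was tested on simulated data. No edgeR or DESeq2 test was run, since each group is 1 library, and these tools (edgeR 4.0.16, DESeq2 1.42.0) gave alternative scalings only. The members and lists were chosen with earlier results of these data known. Of each list, the 5 genes with the largest post-depletion fold and 2 with less than a 2-fold difference were named, apart from some that are not reported here. The short promoter motif was added after the 7-letter ones.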

Additional observations from a re-analysis of the deposited data

How the results depend on the processing

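No paired analysis was possible because each group is 1 library. With 19 other settings each, the folds of Hnf4a and Foxa3 in KPF1F2 over KP stayed within the counting interval of the values above in 16 settings pre-depletion (each gene) and in 15 (Hnf4a) and 16 (Foxa3) post-depletion. The settings include other scalings, filters, resolutions, kept doublets, a CRE-ERT2 UMI in each cell and 5% free RNA removed. Another of the 19, clustering with the members allowed, could not differ, since 0 members were among the variable genes. Most settings reuse largely the same UMIs, so they are not independent checks. The amount of CPM added moved Hnf4a to −7.67 pre-depletion and −5.77 post-depletion (0.1 CPM) and to −2.34 and −2.48 (5 CPM), and Foxa3 to −1.52 post-depletion (5 CPM). Foxa3 pre-depletion moved to −0.30 in cells thinned to 5000 UMIs. Settings chosen after seeing the data were unnamed clusters of epithelial markers added, shallow named clusters left out, the cell with most UMIs left out, the Sftpc cluster alone and cells with neither Gkn2 nor Ctse. The Sftpc cluster alone gave −0.43 and −1.02 for Hnf4a and 0.70, on 1 UMI per library and so reversed, and −0.67 for Foxa3. Cells with neither marker gave −0.47 and −1.15 for Foxa3, and −3.54 for Hnf4a post-depletion. The cause was not tested.

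The log2 ratio to the Sftpc state in KP post-depletion was 4.81 for Hnf4a and 3.35 for Foxa3 in the Gkn2 cluster and 5.40 and 4.25 in the Ctse cluster. With cells grouped by their own marker UMIs it was 3.24 and 2.29 for Gkn2 and 3.55 and 2.78 for Ctse. With thinned shares it was 6.07 and 6.68 for Hnf4a, from shares of 11.7% and 18.0% against 0.175% in the Sftpc cluster. Another random draw gave 14.0% and 16.5% against the same low share, so these ratios are imprecise. Genes at least 2-fold lower in KPF1F2 numbered 773 pre-depletion and 902 post-depletion, and 173 and 221 with a mean of at least 20 CPM, and 297 and 419 with 5 CPM added. Genes at least 2-fold higher numbered 882 and 687, and 270 and 275 or 390 and 360 in those settings. TMM moved the median fold of all genes by −0.09 pre-depletion. The small number of epithelial-like cells in KPF1F2 pre-depletion, 186, limits what can be said of Foxa3 there.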

Other observations

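Barcodes that the filters left out also carried the members. Hnf4a stood there at 0 and 0.443 CPM in KPF1F2 against 6.04 and 17.0 CPM in KP, and Foxa3 at 2.81 and 3.25 CPM in KPF1F2 against 3.13 and 8.55 CPM in KP (pre- and post-depletion). The pre-depletion Foxa3 values rest on 14 and 28 UMIs and lie close together.

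The unnamed cluster 24, led by Mzb1, Retnla, Sftpd, Dmkn and Ube2c, held 54 KPF1F2 and 53 KP cells post-depletion. Hnf4a had 0 UMIs in the KPF1F2 cells against 21 UMIs at 19.4 CPM (12.0 to 29.7) in the KP cells. Foxa3 stood at 3.85 CPM (1.66 to 7.59) in KPF1F2 against 12.0 CPM (6.39 to 20.5) in KP. With the unnamed clusters of epithelial markers added, 865 cells in all, the post-depletion folds over the class were −4.27 for Hnf4a and −1.97 for Foxa3.

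Among KPF1F2 post-depletion cells with at least 30000 UMIs, 41.1% of the 107 with Foxa3 had a Foxa1_1 UMI against 29.3% of the 426 without, and 4.67% against 10.6% had a Foxa1_2 UMI. CRE-ERT2 was found in 75.7% of those with Foxa3 against 56.1% of the others. The cells with Foxa3 were also deeper within this range, with a median of 56625 UMIs against 42433.5, and the part of depth in these shares was not tested. They describe a single library.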
